A study of Drosophila melanogaster with 2 samples.

Results

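Far intergenic peaks are binding sites of the zinc finger protein Crooked legs (Crol) that lie in no annotated gene and far from every annotated gene start. They were chosen from the autosomal part of the conservative peak list, the one that passed the authors' threshold between both biological replicates. A peak was kept when its summit, the base of highest enrichment, fell in no gene and more than 5000 bp from the nearest transcription start site (TSS) of any gene, with transposable elements set aside. The rule gave 497 peaks of 7268 on the autosomes (6.84%) and of 9211 in the whole list. The rule used position only and no signal. The data are from chromatin immunoprecipitation with sequencing on whole Drosophila melanogaster embryos of 0 to 24 h. The flies carried a crol-eGFP transgene (strain crol-GFP), and the pull-down used an antibody against GFP, although another label field names crol as the antibody. All samples are 1 group of 2 biological replicates, and the control experiment named in the labels was not analysed here. Embryos of every stage and all their cell types were pooled, so a peak cannot be assigned to a tissue or an hour.

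Crol is a C2H2 zinc finger protein, and its gene was first known as one that answers the steroid hormone ecdysone in leg and wing development. Intergenic sequence far from gene starts holds many of the enhancers and silencers of Drosophila developmental genes, and it is also where Polycomb response elements are often found. A binding site far from a gene start may act on the next gene, on a more distant one or on none, and peak positions alone do not tell these apart. The genes named below are therefore the protein-coding genes on either side of a peak, called adjoining genes, and not known targets.

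The leading base pattern at the summits was a run of G on either strand. The sequences that follow, from the arms 3L and 3R, are shown so that the run can be seen. They are the 6 strongest members with a run of 5 G and the 3 strongest without one. Their mix was thus set by choice and is not that of the ranking. Each is the summit base and the 50 bases on either side of it, + strand, from the RefSeq sequence of the assembly that dm6 names, written 5′ to 3′. Capitals mark a run of 5 or more G or its complement, and GAGAG, the motif of GAGA factor, or its complement. The first 6 have a run of 5 G.
Dip-B to tal-1A, chr3R:13805158-13805258: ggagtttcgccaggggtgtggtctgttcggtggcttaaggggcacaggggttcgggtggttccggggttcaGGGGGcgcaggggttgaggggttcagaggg
NijA to CG43245, chr3L:10739576-10739676: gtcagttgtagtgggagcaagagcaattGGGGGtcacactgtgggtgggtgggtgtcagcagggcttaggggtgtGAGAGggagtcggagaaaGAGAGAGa
exex to RNaseX25, chr3L:7955186-7955286: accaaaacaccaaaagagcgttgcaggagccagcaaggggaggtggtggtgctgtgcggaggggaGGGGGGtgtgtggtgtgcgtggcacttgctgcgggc
msopa to olf413, chr3L:22130042-22130142: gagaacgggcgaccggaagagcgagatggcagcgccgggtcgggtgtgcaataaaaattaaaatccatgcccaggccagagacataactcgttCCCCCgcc
hry to SrpRbeta, chr3L:8697975-8698075: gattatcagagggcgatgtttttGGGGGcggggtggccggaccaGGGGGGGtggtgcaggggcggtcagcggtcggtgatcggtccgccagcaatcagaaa
CG7011 to Prx1, chr3L:15176966-15177066: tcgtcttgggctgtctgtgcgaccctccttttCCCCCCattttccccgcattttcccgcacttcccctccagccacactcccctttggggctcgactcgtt
The next 3 are the strongest on these arms that lack such a run. GAGAG stands in the first and second of them, and the last has neither motif.
NijA to CG43245, strongest of its gap, chr3L:10740256-10740356: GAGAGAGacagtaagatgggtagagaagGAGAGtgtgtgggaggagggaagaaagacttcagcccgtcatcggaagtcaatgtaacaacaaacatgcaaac
CG45544 to CG14506, chr3R:29287485-29287585: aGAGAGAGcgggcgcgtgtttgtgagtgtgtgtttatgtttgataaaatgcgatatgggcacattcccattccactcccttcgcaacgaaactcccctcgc
Sox100B to CG11317, chr3R:31086509-31086609: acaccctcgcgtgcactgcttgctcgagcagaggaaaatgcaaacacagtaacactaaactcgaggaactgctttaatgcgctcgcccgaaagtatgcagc

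A run of 5 G lay within 50 bp of the summit in 272 of the 497 peaks (54.7%, 95% interval 50.2% to 59.2%, exact Clopper-Pearson). In the flanks of the same peaks, 200 to 250 bp away on both sides, 62 peaks held one (12.5%). The share over all autosomal peaks was 51.4% at the summit and 12.8% in the flanks, and that of near intergenic peaks, with a TSS within 5000 bp but none within 500 bp, was 58.9%. Gene body peaks stood at 56.3% and promoter peaks, within 500 bp of a TSS, at 38.1%. The interval of far intergenic summits overlapped those of gene body and near intergenic ones and lay above that of promoter summits, 36.0% to 40.3%. These intervals, and all others for shares and densities, cover counting error only, and no test was run, because peaks of 1 group are not replicates of a condition.

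**Figure D1:**
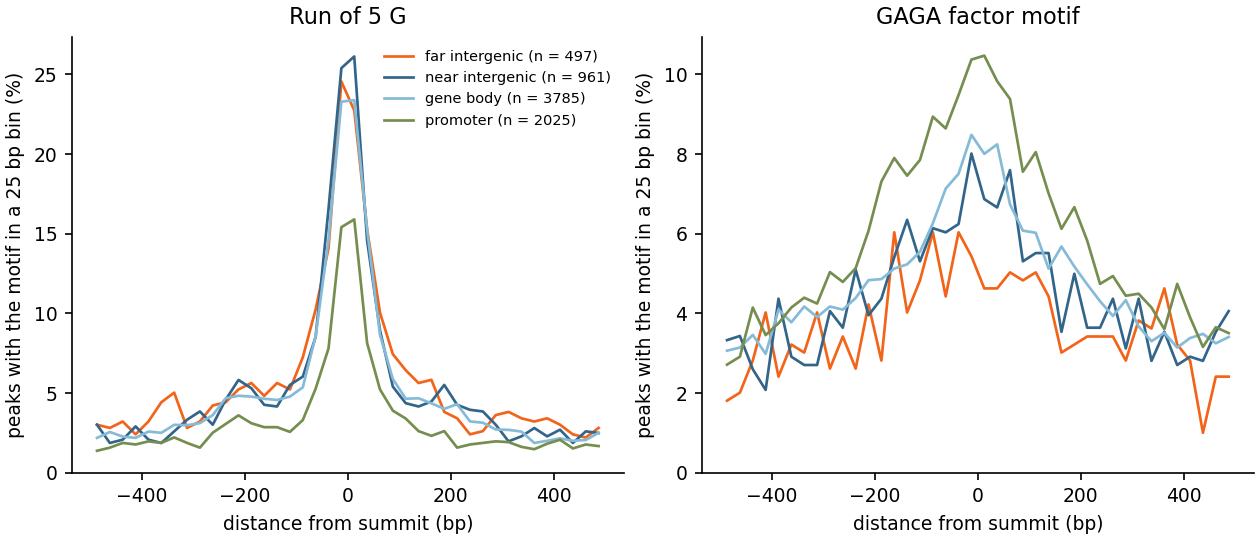
Share of peaks (%) with a run of 5 G (left) or the GAGA factor motif (right) in each 25 bp bin, against distance from the summit in bp, for the 4 position classes of autosomal peaks. The run of 5 G rises to a narrow peak at the summit in every class, while the GAGA factor motif is low and broad in far intergenic peaks.

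As a ratio of summit to flank shares, longer runs stood further above the flanks, at 12.1 for 6 G, 4.39 for 5 G and 2.01 for 4 G. At least 6 G in a row were found at 170 summits (34.2%) and in the flanks of 14 (2.82%), against 28.4% and 4.31% for all autosomal peaks. At least 4 G in a row were found at 411 summits (82.7%) and in 41.2% of flanks, against 76.6% and 33.9% for all autosomal peaks. At 24 summits (4.83%) the longest run had 12 or more G, which was not counted over all autosomal peaks. Median GC content was 53.5% at far intergenic summits and 43.1% in their flanks, the same values as over all autosomal peaks.

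Without any motif chosen beforehand, all 2080 6-base sequences, each joined with its reverse complement, were counted at summits and in flanks. The 10 with the largest excess at far intergenic summits were all rich in G on 1 strand, led by a run of 6 G, and 9 of them were also among the top 10 of all autosomal peaks. After the run of 6 G came AGGGGG, at 33.6% of far intergenic summits and 5.43% of flanks, then CCCCTC, at 33.6% and 6.84%, and GGGGGA, at 27.8% and 4.23%. Next was CACCCC, at 23.7% and 5.43%, and the last of the 10 was ACCCCC, at 21.3% and 5.03%. The sequences rarer at summits than in flanks were rich in A and T, with AAAATA at 9.26% of summits and 20.7% of flanks.

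The motif of GAGA factor, a protein that opens chromatin and works with Polycomb and trithorax proteins, was less frequent. GAGAG lay at 85 summits (17.1%, 13.9% to 20.7%) and in 11.9% of flanks, with overlapping intervals. Its share was 21.5% in near intergenic and 29.1% in promoter peaks, 945 of 3785 in gene body peaks and 25.1% in all autosomal peaks. The share of the far intergenic class was thus the lowest of the 4. Its interval overlapped that of near intergenic peaks and lay below those of gene body and promoter peaks. GCCAT, the core of the motif of the Polycomb recruiter Pleiohomeotic, was at 23.7% of summits and 19.9% of flanks, with overlapping intervals. Over all autosomal peaks GCCAT was at 19.3% of summits. GGGCG, which can overlap a run of G, was at 33.4% of far intergenic summits and 15.9% of their flanks, against 31.5% and 13.3% for all autosomal peaks.

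The other motifs searched, each on both strands, had overlapping intervals at summits and in flanks. TAATTA, bound by many homeodomain proteins, was at 2.82% of summits and 6.64% of flanks. AGATAA, which GATA factors bind, stood at 3.82% and 6.24%. AGGTCA, a nuclear receptor half-site and so of the kind ecdysone receptor partners bind, was at 13 summits (2.62%) and in 11 flanks (2.21%). CAGGTA, part of the motif of the pioneer factor Zelda, was at 9 summits (1.81%) and in 13 flanks. The palindrome CACGTG, an E-box, was at 4 summits (0.805%) and the AP-1 motif TGANTCA at 9 (1.81%). The Grainyhead core AACCGG was at 11 (2.21%) and the DREF core ATCGAT at 13 (2.62%). GTGTGT was at 11.5% of summits and 8.45% of flanks. Over all autosomal summits the shares were 2.86% for TAATTA, 3.98% for AGATAA, 1.995% for AGGTCA and 1.98% for CAGGTA. They were 1.36% for CACGTG, 1.54% for TGANTCA, 2.39% for AACCGG, 2.04% for ATCGAT and 11.45% for GTGTGT. A match is a description of the letters, and its absence says nothing about a factor.

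Stronger far intergenic peaks held the run of 5 G more often, though not beyond the third of 4 signal bins. With the members ranked by signal and cut into 4 bins of near equal size, 38.4% of the lowest bin had it (29.8% to 47.5%), and 54.8%, 63.7% and 62.1% of the bins above it. The lowest bin includes the 19 members with a signal under 20, of which 18 repeat the replicate values of another conservative peak. Such bins were not made for all autosomal peaks. Median signal was 110.2 with the run and 84.8 without it. Each replicate showed the same order, with medians of 62.2 and 48.5 in replicate 1 and of 49.6 and 42.7 in replicate 2. GAGAG was at 25.8% of the highest bin and at 13.6% to 15.3% of the other 3. The 49 peaks with both motifs had a median signal of 136.2, and the 189 with neither had 84.8. Median GC content at the summits of the 4 bins, from the lowest signal up, was 50.5%, 54.5%, 53.5% and 56.4%, and its part in these shares was not tested.

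The signal of a peak is the height the authors deposited, in units that the files do not define, so it is compared only within a list. Far intergenic peaks had a median of 97.4 (quartiles 72.4 and 147.1, range 2.37 to 2183). The medians were 113.0 for near intergenic, 109.9 for gene body and 127.3 for promoter peaks, and 113.1 for all autosomal peaks. Signals above 500 were reached by 16 far intergenic peaks (3.22%), against 5.53% of all autosomal peaks. The lower median recurred in each replicate's own list. It was 65.8 against 73.9 for all peaks in replicate 1, and 61.7 against 69.9 in replicate 2, ratios of 0.891 and 0.884. Peak width had a median of 410 bp in every class.

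Replicate 1 gave the higher value in most members, 359 of the 482 with both values, as in 5376 of 7193 autosomal peaks. The joint list does not name its replicate columns, and each value was taken as that of the replicate whose own ranked list holds the same interval and height. Both replicates had a value for 482 of the 497, from 28.6 through a median of 55.5 to 1254 in replicate 1 and from 26.4 through 46.2 to 913.2 in replicate 2. The ratio of replicate 1 to replicate 2 had a median of 1.23 (quartiles 0.994 and 1.45), against 1.22 over all autosomal peaks. In all, 467 members (96.9%) were within 2-fold, against 94.6% of all autosomal peaks with both values. Across the 482 peaks, which share their libraries, Pearson's r of log2 signal was 0.868 and Spearman's rho 0.751. Files with read counts were not used, so the depth behind each replicate is unknown.

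**Figure D2:**
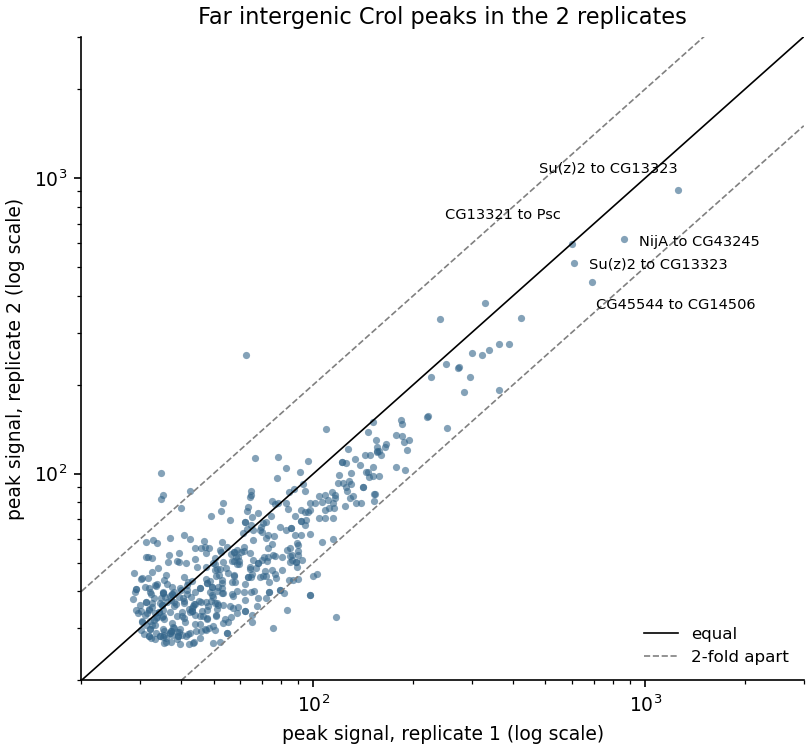
Signal of the 482 far intergenic peaks with a value in both replicates, replicate 1 on the x axis and replicate 2 on the y axis, both log scales in the authors' units; each point is a peak, the solid line marks equal values and the dashed lines 2-fold differences. The 5 strongest are named by adjoining genes, and 467 points lie between the dashed lines.

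A minority of the members was found in the thresholded lists of both replicates taken alone. They numbered 233 (46.9%, 42.4% to 51.4%), where an overlap of 1 bp counted, and the background over all autosomal peaks was 57.1%. Near intergenic peaks stood at 55.9%, gene body peaks at 55.9% and promoter peaks at 62.5%. Of the other members, 102 were in the list of replicate 1 only, 40 in that of replicate 2 only and 122 (24.5%) in neither, against 18.1% of all autosomal peaks in neither. The members in both lists had a median signal of 149.8 and those in neither 66.8. A run of 5 G was at 61.4% of the former and 38.5% of the latter.

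The strongest members were spread over few places. The 20 strongest, 4.02% of the members, held 22.1% of their summed signal, and all 20 were in both replicates' own lists. By arm, 9 were on 2R, 8 on 3L, 3 on 3R and none on 2L. A run of 5 G was at 13 of them, GAGAG at 8 and neither at 5. Replicate 1 was the higher in 18 of the 20, as in most autosomal peaks, with ratios from 0.719 to 1.89.

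Polycomb group genes adjoined the top of the ranking. The strongest member lay 7839 bp from the edge of Su(z)2, on the side of CG13323, with a signal of 2183, from 1254 in replicate 1 and 913.2 in replicate 2. Su(z)2 and its neighbour Psc encode related proteins of the Polycomb group, known for holding developmental genes in a silent state. Rank 3, between CG13321 and Psc, reached 1138, with 599.8 and 596.7 in the replicates. Psc was 6863 bp away, and the nearest TSS, that of CG13321, 5581 bp. In all, 15 members adjoined Su(z)2 or Psc, with a median of 309.2, and both genes also had a promoter peak.

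Other members of the top 20 adjoined genes of mixed roles. The second, at 1474 (865.1 and 619.6), lay between NijA, which encodes a ninjurin of the cell surface, and CG43245, 31619 bp from the nearest TSS. Rank 4, at 1124 (691.7 and 443.1), lay between CG45544 and CG14506. Rank 5, at 1107 (611.0 and 517.3), was again between Su(z)2 and CG13323. The sixth, at 752.2 (421.0 and 335.7), lay between the dipeptidase gene Dip-B and tal-1A, with a tRNA gene as the nearest TSS. Rank 7, at 695.6 (328.2 and 376.4), adjoined Sox100B, a Sox transcription factor gene, and was one of the 2 with the higher value in replicate 2.

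The remaining 13 ran from 649.5 down to 434.2. The gap of Su(z)2 and CG13323 held 3 of them (649.5, 599.6 and 506.4) and that of NijA and CG43245 held 2 (630.9 and 573.8). A pair at 578.2 and 500.4 lay between RYBP, whose protein binds Polycomb complexes, and Ppa. A further pair at 498.6 and 477.4 lay beyond hry (hairy), a pair-rule repressor gene. Single peaks adjoined the motor neuron homeobox gene exex (558.0), msopa and olf413 (549.5), CG7011 and Prx1 (490.3), and betaTub60D and slbo, the latter a C/EBP transcription factor gene (434.2).

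Members lay in a minority of gaps between coding genes. Of 1046 gaps with far intergenic sequence, 219 (20.9%) held a member and 118 of these held just 1. The 24 gaps with 5 or more held 178 members (35.8%). The 8 fullest held 90 (18.1%) on 2.17% of the far intergenic sequence, or 4.17% of the part between the outermost conservative peaks of each arm. These gaps were picked for their counts, so an excess over their share of sequence was fixed in advance. Overlapping members were each counted. Of all members, 227 (45.7%) had another conservative peak within 2000 bp, against 54.4% of all autosomal peaks. The median distance to the next was 2305 bp against 1691 bp.

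**Figure D3:**
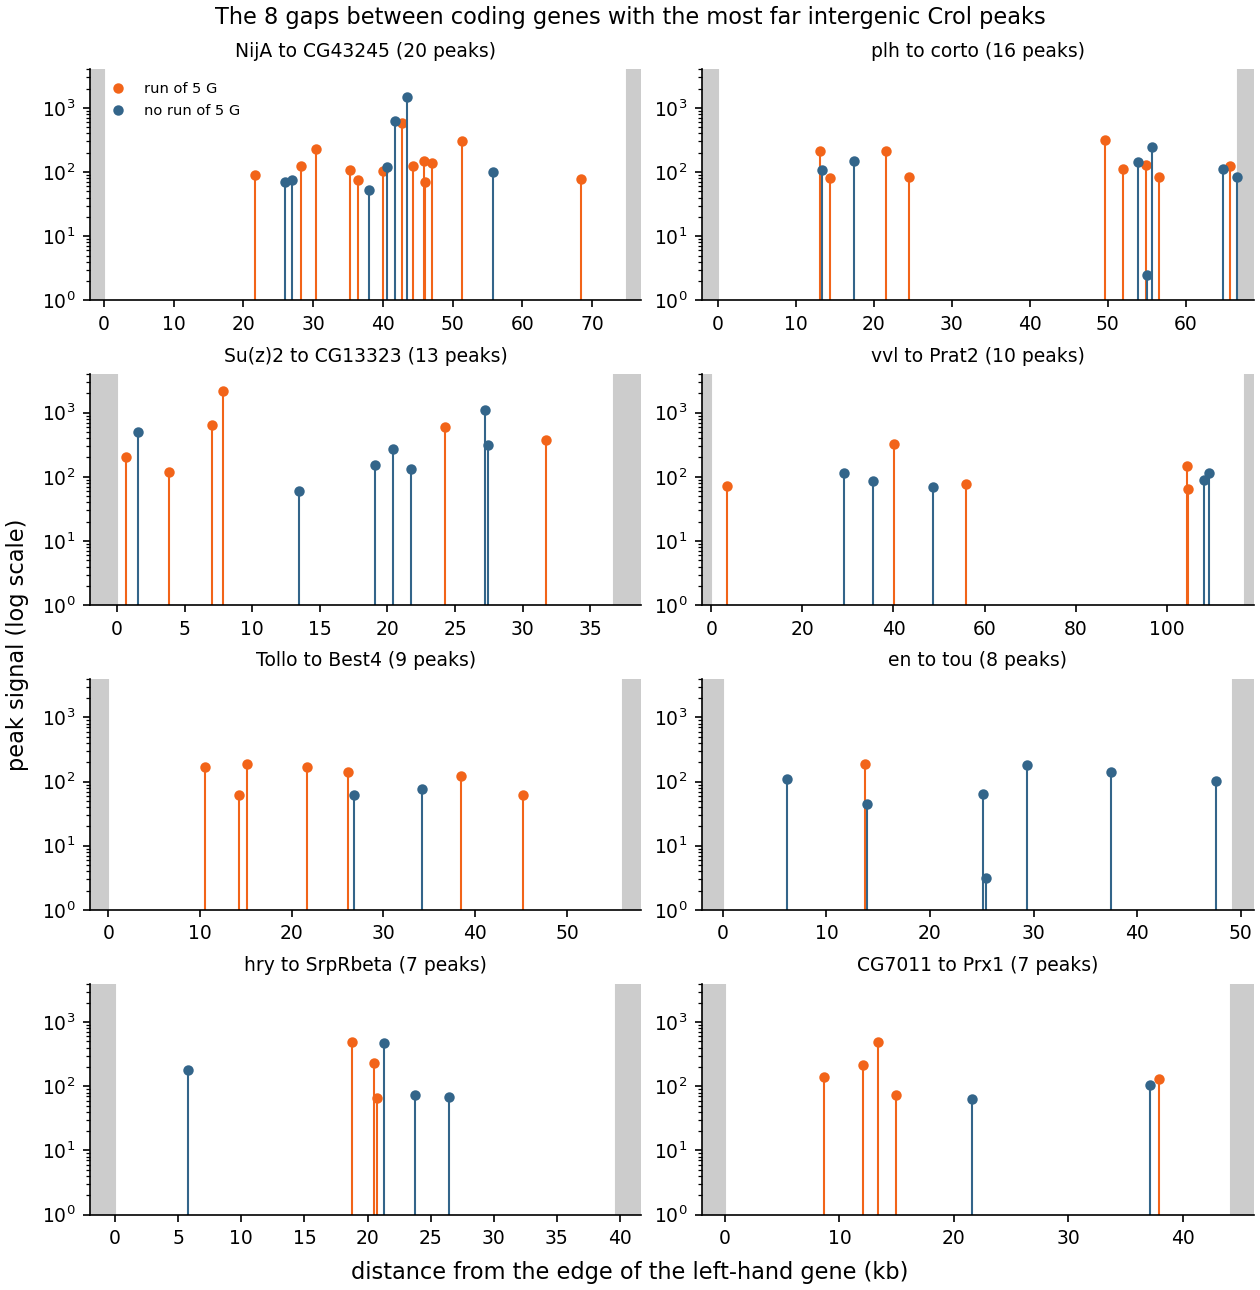
Signal (log scale, authors' units) of each far intergenic peak against its distance in kb from the edge of the left-hand gene, for the 8 gaps between coding genes with the most such peaks; grey marks the adjoining genes and orange a run of 5 G at the summit. The gap of Su(z)2 and CG13323 has the highest points, up to 2183, and that of NijA and CG43245 the most points, 20.

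The gap of NijA and CG43245 held 20 members within 46748 bp, from 52.2 through a median of 113.4 to 1474. Their values ran from 32.7 through 67.0 to 865.1 in replicate 1 and from 29.8 through 47.8 to 619.6 in replicate 2, and 11 of the 20 were in both replicates' own lists. A run of 5 G was at 13. Between plh and corto, the latter a gene for a chromatin protein that works with Polycomb and trithorax proteins, lay 16 members, up to 321.1. Both replicates had values for all 16, up to 194.2 and 129.8. Of these, 9 had a run of 5 G and none GAGAG, and 1 sat 124 bp from the end of corto, the closest of any member to a coding gene.

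The 13 members between Su(z)2 and CG13323 had a median of 309.2, the highest of the 8 gaps, and 10 were in both lists. Their replicate values ran from 35.2 through 159.6 to 1254 and from 28.1 through 115.5 to 913.2. The gap of vvl, a POU transcription factor gene, and Prat2 had 10 members with a median of 87.6 and a strongest of 328.1. Those of Tollo, a Toll family receptor gene, and Best4 numbered 9 (median 123.0, strongest 188.6). Between en, the segment polarity homeobox gene engrailed, and tou lay 8 (median 106.8, strongest 188.2), of which 1 had a run of 5 G. The gaps beyond hry and between CG7011 and Prx1 held 7 each, with medians of 180.9 and 131.3.

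Segmentation genes, developmental transcription factor genes and secreted signal genes adjoined a far intergenic peak more often than coding genes at large. The background was 404 of the 1728 coding genes that border far intergenic sequence (23.4%). Of the listed developmental transcription factor genes, 45 of 92 that border such sequence adjoined a member (48.9%, 38.3% to 59.6%). Segmentation genes, which lay out the body axis of the embryo, did so in 15 of 22 cases (68.2%, 45.1% to 86.1%). Genes of secreted signals did so in 9 of 15 (60.0%, 32.3% to 83.7%). These lists share members, such as en, ems and wg, and adjoining genes share gaps, so the counts are not independent. The 1728 include genes of gaps outside the outermost conservative peaks of each arm, where no member can lie, which lowers the background. A share of genes also takes no account of gap length. Between the outermost peaks, segmentation genes had 136.9 members per Mb, transcription factor genes 94.9 and secreted signal genes 88.7, against 55.6 over all gaps. These lists were not alone above 55.6. BTB domain genes had 189.2 on 10 members, ecdysone pathway genes 115.2 on 8 and cuticle protein genes 71.0 on 2. The Hox, adhesion and guidance, ion channel, Polycomb and trithorax, chemosensory and ribosomal protein lists were below it.

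**Figure D4:**
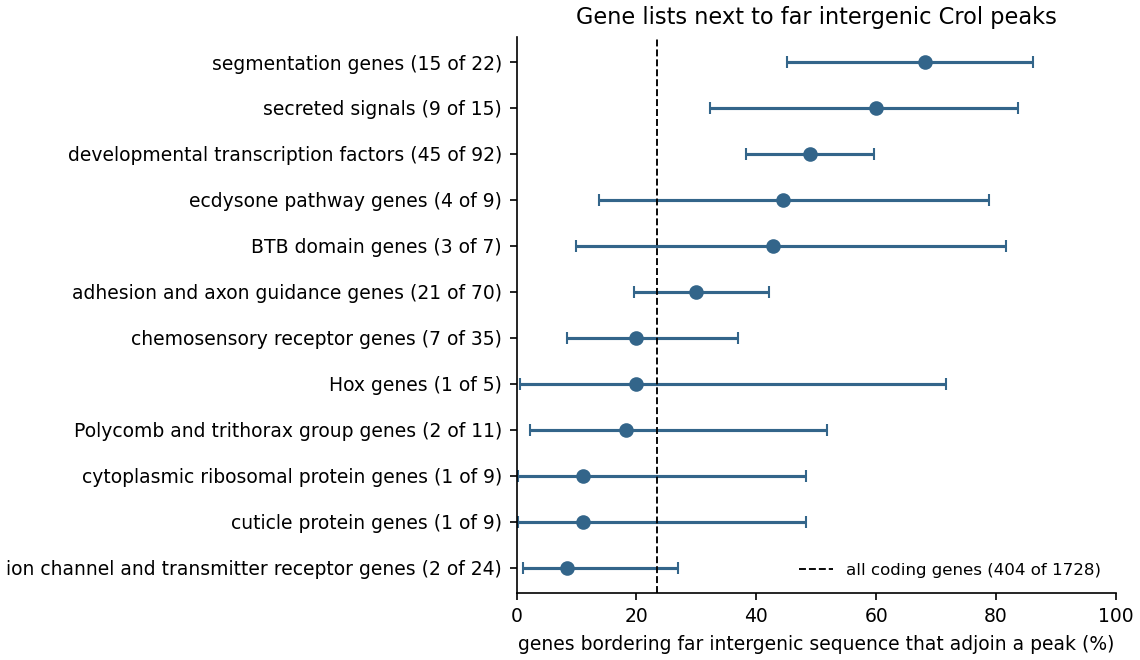
Share (%) of the genes bordering far intergenic sequence that adjoin a far intergenic peak, for 12 gene lists, with exact 95% intervals for counting error; the dashed line is the share over all such coding genes, 404 of 1728. The intervals of segmentation genes, secreted signals and developmental transcription factors lie wholly above the line. The 1728 include genes of gaps outside the outermost conservative peaks of each arm, where no member can lie.

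Members next to listed transcription factor genes numbered 118 (23.7% of all, 20.1% to 27.7%), on gaps with 9.18% of the far intergenic sequence. Between the outermost conservative peaks of each arm, the stretch in which members can lie, these gaps made up 13.9% of it and held 94.9 members per Mb, against 55.6 per Mb over all gaps, chromosome 4 included. Their median signal, 94.0, was close to the 97.4 of all members. The strongest adjoined exex at 558.0 (300.9 and 254.8 in the replicates), vvl at 328.1 (176.9 and 135.1), tsh, the trunk homeotic zinc finger gene, at 304.2 (187.5 and 128.0), and the GATA factor gene grn at 287.7 (157.5 and 118.8). Each of these had the higher value in replicate 1, as most autosomal peaks did. Among segmentation genes the leaders were hry at 498.6 (271.8 and 227.1), the Hedgehog receptor gene ptc at 279.8 (155.2 and 119.1), ems at 188.5 (108.2 and 75.2) and en at 188.2 (116.5 and 84.8). Of the Hox genes, which set segment identity, 1 of 5 adjoined a member, abd-A at 128.7 (72.7 and 50.6).

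The signal genes were led by Pvf3, a growth factor of the PDGF and VEGF family, at 173.6 (96.0 and 74.2). The FGF ligand genes pyr and ths share a gap and their strongest member of 167.0 (83.7 and 75.9). The Wnt genes wg and Wnt6 likewise share 1 of 99.6 (42.5 and 60.3), higher in replicate 2. Adhesion and axon guidance genes stood nearer to the background, at 21 of 70 (30.0%, 19.6% to 42.1%). By density between the outermost peaks they were below it, at 42.85 members per Mb against 55.6 over all gaps. The adhesion and guidance genes were led by beat-IIIc at 285.0, Toll-6 at 252.0, shg, the E-cadherin gene, at 249.3 and 18w at 222.9.

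Genes of the ecdysone pathway adjoined a member in 4 of 9 cases, with an interval of 13.7% to 78.8% that includes the background. They were chinmo at 249.4 (143.2 and 115.8), Blimp-1 at 100.4 (57.2 and 35.2), Eip93F at 98.9 (54.3 and 47.8) and shd, which encodes the enzyme that makes the active hormone, at 70.6 (35.3 and 34.7). Of the BTB domain genes, 3 of 7 did so. The neighbours bab1 and bab2 share a gap of 6 members, up to 257.8 (151.6 and 104.9), and the third was chinmo. Of the Polycomb and trithorax group, 2 of 11 did so (18.2%), the genes Su(z)2 and Psc described above.

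The other lists had shares of genes below the background of 23.4%, with intervals that all include it. By density between the outermost peaks, cuticle protein genes were above the 55.6 per Mb of all gaps, at 71.0 on 2 members. Chemosensory receptor genes were below it at 17.7, ribosomal protein genes at 16.0 and ion channel and transmitter receptor genes at 4.82. Chemosensory receptor genes stood at 7 of 35, led by Gr93b and Gr93a, which share a member of 173.0, then Or24a at 123.1 and Or67d at 84.4. Ion channel and transmitter receptor genes stood at 2 of 24 (8.33%, 1.03% to 27.0%), and both, nAChRbeta2 and nAChRalpha2, border the same peak of 92.1. Cuticle protein genes stood at 1 of 9, with Cpr35B at 210.1, and cytoplasmic ribosomal protein genes at 1 of 9, with RpL22-like at 59.5.

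Genes that adjoined a member more often had a promoter peak too. Of the 404, 104 (25.7%) had a Crol peak within 500 bp of a TSS, against 168 of 1324 (12.7%) that border far intergenic sequence without a member, and a background of 15% over all autosomal coding genes (1763 of 11749). Among developmental transcription factor genes the counts were 31 of 45 (68.9%) with a member and 23 of 47 (48.9%) without. The 1324 genes without a member include those of gaps outside the outermost conservative peaks of each arm, where none can lie.

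Far intergenic sequence held fewer peaks than near intergenic sequence. The density was 28.9 per Mb (26.4 to 31.6, exact Poisson interval) over 17.2 Mb, against 68.8 per Mb (64.5 to 73.3) in near intergenic sequence. By arm, 2L held 127 members (40.8 per Mb), 2R 89 (19.4), 3L 167 (29.9) and 3R 114 (30.2). Chromosome 4 had none among its 8 peaks, which allows a share of up to 37.5% when the limit of a count of 0 is set at 3 counts. Of the far intergenic sequence, 8.14 Mb lay outside the outermost conservative peaks of the arms, where by definition no member can lie. Inside them the density over the 4 large arms was 55.8 per Mb (51.0 to 60.9). By arm it ran from 44.1 on 3R through 56.0 on 2L and 58.7 on 2R to 65.8 on 3L. The 68.8 per Mb of near intergenic sequence is not limited in this way. With both limited to the span between the outermost peaks, the far intergenic density was 0.752 of the near intergenic one. That limit was chosen after the positions were seen, and whether reads can be placed in the outer sequence was not tested.

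**Figure D5:**
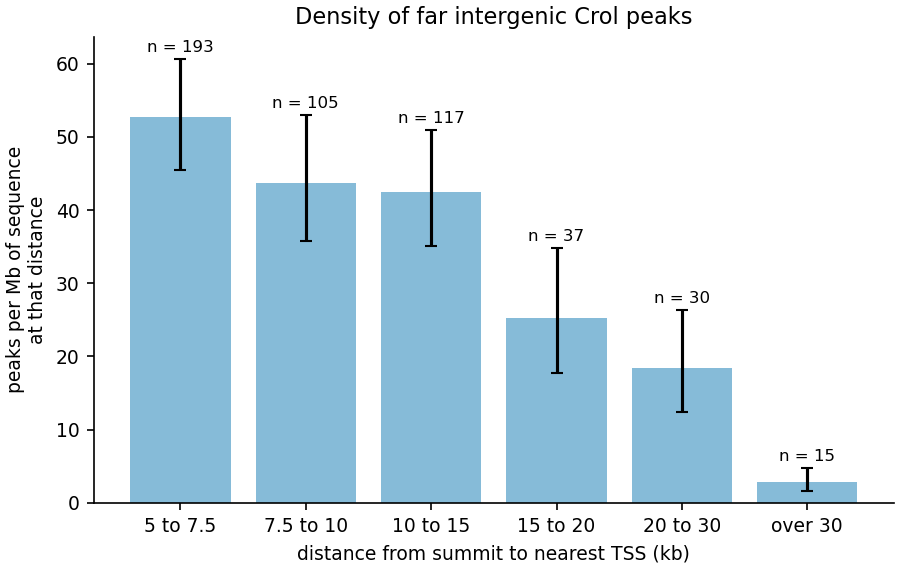
Far intergenic peaks per Mb of sequence (y axis, from 0) against distance from the summit to the nearest TSS in kb; bars are densities with exact 95% Poisson intervals and n is the number of peaks. The density falls from 52.7 per Mb at 5 to 7.5 kb to 2.85 per Mb beyond 30 kb.

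Density was lower at greater distance from a TSS. It was 52.7 per Mb at 5 to 7.5 kb (193 peaks), 43.8 at 7.5 to 10 kb (105), 42.5 at 10 to 15 kb (117), 25.3 at 15 to 20 kb (37), 18.5 at 20 to 30 kb (30) and 2.85 beyond 30 kb (15). The sequence at the arm ends is included in these values. Median signal showed no such order, from 81.1 at 20 to 30 kb to 115.5 beyond 30 kb. The median distance of the members was 8684 bp, with 38046 bp as the largest. The nearest TSS belonged to a coding gene for 326 members, a noncoding RNA for 160, a tRNA for 7 and a pseudogene for 4. A TSS is not the only edge of a gene, and 20 members (4.02%) lay within 1000 bp of a coding gene's edge.

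The farthest member lay between bab1 and bab2 and had a signal of 98.2 (56.9 in replicate 1, 39.0 in replicate 2). The next ones were 3 peaks between NijA and CG43245, at 37019, 36437 and 35303 bp with signals of 52.2, 75.4 and 105.9, and 1 beyond vvl at 35894 bp with 84.8. Just inside the limit of 5000 bp were peaks at 5005 bp between side-IV and CG12538 (signal 52.2), at 5023 bp between soti and cv-c (108.1) and at 5041 bp between noc and CG33648 (56.9). Just outside it were peaks at 4994 bp beyond ap (279.7), at 4980 bp between CG43245 and CG12523 (59.5) and at 4967 bp between RFeSP and chinmo (65.4).

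The weakest members had signals of 2.37 to 3.12, which were not set against their replicate values because the units are undefined. They lay between trv and CG34354 (2.37), plh and corto (2.48), bab1 and bab2 (3.09), hb and Cks85A (3.10), and en and tou (3.12). The one between plh and corto had 97.3 in replicate 1 and 39.0 in replicate 2, the same values as the peak of 130.2 that it overlaps. In all, 19 members had a signal under 20, and 18 of these repeat the replicate values of another conservative peak, as 46 members do overall.

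The replicates were furthest apart in a few peaks. Replicate 2 was 4.02-fold the value of replicate 1 at a peak of 99.4 between RYBP and Ppa (62.5 and 250.9). The value of 250.9 is also that of the overlapping peak of 578.2. The next were peaks beyond hry (34.7 and 100.3), beyond en (35.1 and 84.8), between dpr17 and CG4702 (34.8 and 82.3) and between CG14369 and CG9759 (42.4 and 87.2). Of these, 100.3 and 84.8 are likewise the values of overlapping peaks, of 227.6 beyond hry and 188.2 beyond en. In the other direction, replicate 1 was 3.58-fold the value of replicate 2 at a peak between Dyro and CG7573 (116.7 and 32.6). It was 2.52-fold at a peak between CG7011 and Prx1 (75.5 and 30.0), 2.50-fold at the overlapping pair between plh and corto, and 2.42-fold at another peak of that gap (83.4 and 34.5).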

How the data were processed

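Both biological replicates of the 1 group were used. The authors deposited peak lists on dm6, per the labels, with a signal per peak whose scaling is not given and a score of 830 to 1000 that rescales the irreproducible discovery rate (IDR), per the file notes. The sources used here name no aligner or peak caller, and the read depth is unknown. The signal values of each replicate come from the joint ranked list, whose columns name no sample. A value was given to the replicate whose own labelled list holds the same interval and signal. Of 7268 autosomal peaks, 7245 values of one column were found in the list of replicate 1 and 7216 of the other in that of replicate 2, none in the opposite list, and the unmatched were left empty.

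Genes came from Ensembl release 115 (18164 genes on 6 arms without transposable elements), and bases from RefSeq. Summits were classed by position, motifs were counted within 50 bp of a summit and in flanks of like total length, and gene lists were matched to adjoining coding genes. Of 517 list names, 14 were matched by an older name and 9 were not matched. The members and lists were chosen with earlier results of these data known, and 7 list entries that did not belong were removed after values were seen. Named peaks are the 20 strongest, the 8 fullest gaps, up to 4 genes a list, and the extremes of distance, signal and replicate ratio. Exact Clopper-Pearson and Poisson 95% intervals were used, and no test. Counting code was checked on simulated data. Alternatives were the other lists, distances, windows, overlaps and annotations. Python 3.11.15, numpy 2.4.6, pandas 2.3.3, scipy 1.17.1 and matplotlib 3.10.9 were used.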

Additional observations from a re-analysis of the deposited data

How the results depend on the processing

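Of 44 alternatives for 7 results, 17 left the value as it was within the spread between replicates, the counting interval or, for the number of peaks, 1.5 times. The number of far intergenic peaks was 890 at 2500 bp, 199 at 10000 bp and 887 with coding genes only, and 285 to 377 in the list of 1 replicate. The median signal over that of all peaks, 0.861, was 0.877 in the optimal list, 0.875 at the highest score, 0.891 at 2500 bp, and 0.884 to 0.891 with 1 replicate, below 1 in each. The density over that of near intergenic sequence, 0.421, was 0.389 at the highest score, 0.536 at 2500 bp, 0.285 at 10000 bp, 0.498 over unmasked bases, 0.367 to 0.380 with 1 replicate and 0.752 between the outermost peaks, an alternative chosen after seeing the data. The share in both replicates' lists, 46.9%, was 40.6% where the overlap had to cover a large part of the peak and 42.1% with summits within 100 bp. A run of 5 G, at 54.7%, was at 38.2% within 25 bp and 69.0% within 100 bp, and at 59.4% to 60.0% with 1 replicate. A run of 4 G was at 82.7% and of 6 G at 34.2%. GAGAG, at 17.1%, was at 8.85% within 25 bp and 29.8% within 100 bp. The share of members next to a listed transcription factor gene, 23.7%, was 15.3% with the gene of the nearest coding TSS only. No paired analysis was possible because there is 1 group. Depth is unknown, so what it limits cannot be given.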
